A study of Homo sapiens with 14 samples.

Results

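The serine tRNAs described here are the 24 loci whose names begin tRNA-Ser- in the study's list of tRNA crosslink clusters, out of 248 tRNA loci in that list. They comprised 9 loci with the anticodon AGA, 4 with CGA, 7 with GCT, 3 with TGA and 1 with ACT, and were covered by 49 of 493 tRNA clusters, with clusters under 40 nt apart taken as 1 locus. A locus was followed on its own strand from 100 nt 5′ to 25 nt 3′ of its cluster. The libraries came from a study of TRMT2A, an enzyme that methylates uridine 54 of tRNAs to 5-methyluridine, and were made from 2 human cell lines, HEK293 (an embryonic kidney line) and HAP1 (a near-haploid line). Every library counts cDNAs by the base at which reverse transcription stopped, that is, the base before the start of the cDNA, as marked in the deposited files.

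The 14 libraries form 5 groups. FICC-Seq (3 libraries of HEK293, 3 of HAP1) used cells given 100 µM 5-fluorouracil for 24 h, so that endogenous TRMT2A stayed covalently bound to 5-fluorouridine at its target base, and no UV. The labels give these libraries the condition Untreated although the protocol text describes the 5-fluorouracil. iCLIP (3 of HEK293, 3 of HAP1) used UV crosslinking and the same antibody against endogenous TRMT2A. miCLIP (2 of HEK293, none of HAP1) used cells transfected with a FLAG-tagged TRMT2A carrying a point mutation (glutamate to alanine) in the catalytic base, which keeps the enzyme bound to its target; cells were harvested 24 h after transfection, the bound RNA was recovered with an antibody against FLAG, and no UV was used. The miCLIP libraries therefore differ from the others in the enzyme (overexpressed, tagged and mutated) as well as in the crosslink. No library without crosslinking was analysed here, so levels have no background control. The study calls the replicates biological, and the labels do not say whether they were separate cultures, so p-values measure the spread between these libraries, which may be technical.

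Serine tRNAs and leucine tRNAs belong to class II, the tRNAs with a long variable arm, an extra stem and loop between the anticodon arm and the T arm. Seryl-tRNA synthetase is known to recognise that arm rather than the anticodon, and the anticodons of serine tRNAs read 2 unrelated codon families. The T arm follows the variable arm: guanosine 53 closes its stem, and uridines 54 and 55, cytidine 56, a purine at 57 and adenosine 58 open its loop. Adenosine 58 is known to carry 1-methyladenosine in most cytosolic tRNAs, a modification that stops reverse transcriptase. A cDNA that stops just before a crosslink at uridine 54 is marked at position 54, and a cDNA that copies that base and then stops is marked at position 53, so positions 53 and 54 were counted together. A stop at a modified adenosine 58 is marked at position 58, which was counted apart.

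The stretch from position 44 to position 60 (variable arm, T stem and the start of the T loop) is shown for the loci that the values below turn on, on GRCh37. Capitals mark positions 53, 54 and 58, the bases at which most counts lay over all serine tRNAs.

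tRNA-Ser-AGA-2-1 (chr6:26327860-26327885, plus strand): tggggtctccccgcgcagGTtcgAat
tRNA-Ser-TGA-4-1 (chr6:27473620-27473645, minus strand): tggggtttccccgcgcagGTtcgAat
tRNA-Ser-CGA-3-1 (chr6:27640242-27640267, minus strand): tgggggttccccgcgcagGTtcaAat
tRNA-Ser-CGA-4-1 (chr12:56584191-56584216, plus strand): tggggtttccccgcacagGTtcgAat
tRNA-Ser-GCT-1-1 (chr6:27065128-27065153, plus strand): tgtgctctgcacgcgtggGTtcgAat
tRNA-Ser-GCT-3-1 (chr11:66115634-66115659, plus strand): tgtgctttgcacgcgtggGTtcgAat
tRNA-Ser-GCT-5-1 (chr6:28180858-28180883, plus strand): tgtgctctgcacacgtggGTtcgAat
tRNA-Ser-ACT-1-1 (chr6:27261715-27261731, plus strand): gggtcgaggTTtcgAtc

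The variable arm was 14 nt long in 23 of the 24 genes, of which 22 are 82 nt long and tRNA-Ser-GCT-6-1 is 84 nt. tRNA-Ser-ACT-1-1, in contrast, is 74 nt long, has 5 nt between the anticodon arm and the T arm and has T in place of G at position 53. The label of a long variable arm therefore fails for this locus, and it is given separately wherever its value matters. Its T arm was placed by a relaxed rule that did not require G at position 53. Genes of the same anticodon shared a median 98.8% of bases (60 pairs, from 82.9% to 100%, with 18 pairs identical), and genes of different anticodons a median 75.6% (171 pairs). The GCT genes stood furthest from the rest, at a median 74.4% over 96 pairs, while AGA and TGA genes shared a median 95.1% over 27 pairs.

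Such identity limits what can be said of single loci. The 6 AGA-2 genes have the same sequence, as do the 3 GCT-4 genes, and the study kept uniquely mapped reads with up to 2 mismatches. An exact cDNA that began at position 59 had to run from 0 to 4 bases past position 73, into the genomic trailer, to match 1 serine gene alone. The trailer is removed from mature tRNAs and replaced by CCA, so the separation of copies rests on few bases. The end of the gene and the start of the trailer (capitals) are shown for the 3 GCT-4 copies.

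tRNA-Ser-GCT-4-1 (chr6:28565105-28565124, minus strand): cctcgtcgTTTCTGGAGGTT
tRNA-Ser-GCT-4-2 (chr15:40886011-40886030, minus strand): cctcgtcgATGTGGTGGCTT
tRNA-Ser-GCT-4-3 (chr17:8090258-8090277, plus strand): cctcgtcgGCTAAGGAAGTC

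Values of identical copies are therefore uncertain as to the copy, and sums over an anticodon are the firmer measure. For AGA and TGA the sums share part of this limit. The 9 AGA genes and tRNA-Ser-TGA-3-1 are the same from position 54 to position 73. Over that stretch only trailer bases separate TGA-3-1 from the AGA genes. Most of the genes lie outside other genes of their strand. The exceptions are tRNA-Ser-AGA-2-6, inside an exon of CTC1, tRNA-Ser-GCT-3-1, inside B4GAT1-DT but not in its exons, tRNA-Ser-GCT-4-1, inside SCAND3, and 3 loci in unnamed transcripts. Over all libraries 12089 cDNA counts lay on the sense strand of the serine windows and 2 on the opposite strand.

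The libraries held from 7002 to 104605 cDNA counts in all, and from 3809 to 60532 in the tRNA windows. iCLIP libraries were the shallowest, with 166 to 342 counts in serine tRNAs, against 682 to 1077 in FICC-Seq and 1563 and 3865 in miCLIP, so iCLIP values of single loci rest on few cDNAs. Both FICC-Seq libraries numbered 2 stood apart from the other FICC-Seq libraries, with 3.85% (HEK293) and 9.24% (HAP1) of serine counts upstream of position 49, against 0.743% at most in the other 4. In non-serine tRNAs the same libraries had 7.48% and 12.1% upstream, against 1.66% at most. Their part in the results below was tested by leaving both out.

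Serine tRNAs took a small share of the tRNA counts in every method. In FICC-Seq they held 4.78% ± 0.63 of tRNA counts in HEK293 (SD, n = 3, from 4.09% to 5.32%) and 3.17% ± 0.22 in HAP1 (n = 3, from 3.04% to 3.42%). In iCLIP they held 4.52% ± 0.27 in HEK293 (n = 3) and 4.05% ± 0.19 in HAP1 (n = 3). The miCLIP libraries gave the highest shares, 6.39% and 7.21%. The FICC-Seq libraries of HEK293 all lay above those of HAP1, while the miCLIP libraries lay above all of the others. Leucine tRNAs, the other class with a long variable arm and also 24 loci, took 28.3% of tRNA counts in FICC-Seq of HEK293, 48.4% in iCLIP of HEK293 and 6.67% in miCLIP. The share of serine tRNAs thus differed less between methods than that of leucine tRNAs, and since shares add up to the whole, a change in one amino acid moves the others.

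Among the serine isoacceptors (the loci of 1 anticodon summed), GCT had the highest share of counts in all groups. Its mean was 1.62% of tRNA counts in FICC-Seq of HEK293, 1.04% in FICC-Seq of HAP1, 2.08% and 2.02% in iCLIP of HEK293 and HAP1, and 2.38% in miCLIP. By counts GCT ranked 10th of 48 isoacceptors in iCLIP of HEK293 and 18th in FICC-Seq of HEK293. The margin over the next serine isoacceptor was wide in iCLIP, where no GCT library overlapped another serine isoacceptor, and narrow elsewhere. In FICC-Seq of HEK293, GCT (from 1.24% to 1.93%) overlapped CGA (from 1.12% to 1.31%) and AGA (from 0.924% to 1.30%), and in miCLIP, GCT (2.17% and 2.59%) overlapped AGA (2.09% and 2.26%).

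tRNA-Ser-TGA was the lowest of the 4 isoacceptors with a long arm in every group. Its 3 FICC-Seq libraries of HEK293 held 169, 131 and 185 counts (0.862%, 0.957% and 0.787% of tRNA counts) and those of HAP1 held 82, 119 and 104 (0.365%, 0.424% and 0.331%). All HEK293 libraries exceeded all HAP1 libraries. tRNA-Ser-AGA was set apart by miCLIP, where it reached 2.26% and 2.09%, above the 0.588% to 1.30% of the other 12 libraries. tRNA-Ser-CGA showed the least spread, with group means from 0.838% (iCLIP of HAP1) to 1.26% (iCLIP of HEK293).

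tRNA-Ser-ACT was scarcely represented outside miCLIP. The FICC-Seq libraries held 1, 1 and 3 counts in HEK293 and 2, 3 and 5 in HAP1, the iCLIP libraries 1, 0 and 1 in HEK293 and 1, 2 and 3 in HAP1, and the miCLIP libraries 32 and 89. Per tRNA count this was 16.7 times as many in miCLIP as in FICC-Seq of HEK293 (95% exact interval from 6.97 to 52.4, for counting error only), and 12.2 times as many as in iCLIP of HEK293 (interval from 3.30 to 102). Of the 121 miCLIP counts, 111 lay at positions 53 and 54, so this locus carried the peak of the T arm without the long arm.

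Likeness between isoacceptors across the 14 libraries was measured as Pearson's r of log2 CPM (counts scaled to the tRNA total of a library), as a description, since libraries of a method share its chemistry. Among the non-serine isoacceptors, those most like tRNA-Ser-GCT were tRNA-Pro-AGG (r = 0.89), tRNA-Phe-GAA (0.84) and tRNA-Gln-CTG (0.84). Those most like tRNA-Ser-AGA were tRNA-Gly-CCC (0.84), tRNA-Asp-GTC (0.77) and tRNA-Arg-TCT (0.74). For tRNA-Ser-TGA they were tRNA-Gly-CCC (0.74), tRNA-Arg-CCT (0.71) and tRNA-Asp-GTC (0.66). For tRNA-Ser-CGA the values were lower (0.40 with tRNA-Phe-GAA, 0.37 with tRNA-Arg-TCT and 0.34 with tRNA-Asp-GTC). For tRNA-Ser-ACT they were tRNA-Val-CAC (0.85), tRNA-His-GTG (0.82) and tRNA-Thr-AGT (0.78). Within the serine group r ran from 0.05 (ACT and TGA) to 0.63 (AGA and TGA), and CGA was nearest to TGA (0.56).

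Along the gene, FICC-Seq counts of the serine tRNAs lay mainly at 3 bases, positions 53, 54 and 58. In HEK293 706, 579 and 1209 of 2656 counts were at these bases, and in HAP1 834, 526 and 1036 of 2614. iCLIP counts lay mainly at position 58, with 377 of 744 in HEK293 and 293 of 647 in HAP1, against 59 and 54 at position 53. In miCLIP the order was turned, with 2150 of 5428 at position 53, 635 at position 54 and 603 at position 58. The same 3 bases were thus marked by all methods but in different proportions.

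The question put to the T arm was whether the share of counts at uridine 54 differed between crosslinking by 5-fluorouracil and by UV. In the FICC-Seq libraries of HEK293, 45.6%, 47.0% and 52.2% of serine counts were at positions 53 and 54, and in those of HAP1 49.6%, 54.97% and 51.3%. In the iCLIP libraries the values were 16.1%, 17.4% and 15.7% in HEK293 and 13.4%, 26.2% and 14.5% in HAP1. No FICC-Seq library overlapped an iCLIP library. miCLIP gave 53.8% and 50.3%, within the range of FICC-Seq.

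All 4 isoacceptors with a long arm had a higher share at positions 53 and 54 in FICC-Seq than in iCLIP, by 27.0 percentage points for AGA (42.0% against 15.0%), 28.1 for CGA (41.6% against 13.5%), 44.6 for GCT (63.7% against 19.1%) and 27.9 for TGA (47.0% against 19.1%). The 2-sided exact permutation test over 12 libraries, with method labels permuted within a cell line, gave p = 0.005 for each, the smallest it can give, and an adjusted p of 0.00563 over 36 isoacceptors. This difference was general: 100.0% of the 36 isoacceptors tested were called, all higher, with a median difference of 44.6 points. The serine values for AGA, CGA and TGA lay below that median, and that for GCT lay just below it (44.58 against 44.61 points). In FICC-Seq of HEK293 the share ranked 35th (AGA), 34th (CGA), 30th (TGA) and 28th (GCT) of 36, and the median of the non-serine isoacceptors was 71.3%.

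Most of the remaining FICC-Seq counts of serine tRNAs were at position 58. In HEK293 the FICC-Seq share at position 58 was 55.9% ± 2.3 for AGA, 51.98% ± 4.8 for CGA, 46.5% ± 8.8 for TGA and 33.7% ± 4.1 for GCT (SD, n = 3). In HAP1 it was 46.3% ± 6.6, 49.1% ± 9.4, 41.6% ± 12.1 and 25.3% ± 5.6. AGA and CGA ranked 1st and 2nd of 36 isoacceptors in HEK293 and TGA ranked 4th, with GCT at 7th. In HAP1 CGA, AGA and TGA ranked 1st to 3rd and GCT 13th. The median of the non-serine isoacceptors was 15.9% in HEK293 and 12.4% in HAP1. Over all serine tRNAs the FICC-Seq libraries had 48.8%, 45.3% and 42.4% at position 58 in HEK293 and 43.3%, 30.5% and 44.6% in HAP1. The lowest of these was the HAP1 library numbered 2; the HAP1 mean was 39.4% with it and 43.9% without it.

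Leucine tRNAs, which also have a long variable arm, had 22.3% ± 1.4 at position 58 in HEK293 cells and 30.1% ± 1.8 in HAP1 cells by FICC-Seq (SD, n = 3), and all non-serine tRNAs together 16.6% ± 1.7 and 18.9% ± 2.5. Every serine library of HEK293 exceeded every leucine library (from 42.4% against 23.1% at most). In HAP1 the serine library numbered 2 (30.5%) lay within the leucine range (from 28.2% to 31.8%), and the other 2 lay above it. By isoacceptor the order was not uniform: GCT had 27.1%, 19.1% and 29.8% in HAP1, each below leucine in the same library (31.8%, 28.2% and 30.3%). These are comparisons of levels within libraries, given as a description without a test.

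Counted by locus, over loci with at least 10 counts, position 58 held more counts than positions 53 and 54 summed in 13 of 21 serine loci in the FICC-Seq libraries of HEK293, against 11 of 162 other tRNA loci. In those of HAP1 this was so in 6 of 22 serine loci, with tRNA-Ser-TGA-4-1 equal at 36 and 36, against 10 of 181 others. No GCT locus was among them in either line, and tRNA-Ser-GCT-3-1 had 180 counts at positions 53 and 54 and 138 at position 58 in HEK293. With positions 53 and 54 taken as separate bases, position 58 was the highest single base in 14 of 21 serine loci in HEK293 and 13 of 22 in HAP1, so the count in HAP1 depends on whether the 2 bases are summed. In iCLIP position 58 exceeded the sum in 18 of 19 serine loci of HEK293 (84 of 163 others) and 18 of 20 of HAP1 (69 of 178 others). In miCLIP it did so in 0 of 24 serine loci (7 of 213 others). Among single bases of miCLIP, position 53 was highest in 23 serine loci, and base 32, in the anticodon loop, in tRNA-Ser-AGA-4-1 (30 of 129 counts).

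Between FICC-Seq and iCLIP, the share at position 58 was not called different for any of the 4 isoacceptors. The differences were -9.43 points for AGA (adjusted p = 0.106), -2.64 for CGA (0.725), -11.0 for GCT (0.05) and -5.24 for TGA (0.678), by the same exact permutation test. Unadjusted, only GCT had p under 0.05, at 0.025. Of the 36 isoacceptors 44.4% were called (38.9% lower), and the median difference was -9.82 points. The GCT value lay at the threshold: it passed when positions 57 to 59 were counted as 1 (-15.0, adjusted p = 0.0379), and when the iCLIP library 3 of HEK293 was left out (-13.4, adjusted p = 0.024) or the iCLIP library 2 of HAP1 (-13.0, adjusted p = 0.0338). AGA passed without the iCLIP library 1 of HEK293 (-12.7, adjusted p = 0.0138), where it missed the threshold in the full set. All 4 passed when positions with a single cDNA in a library were left out, a step that removes more from the shallow iCLIP libraries. In miCLIP the share was 15.9% for AGA, 10.0% for CGA, 9.80% for GCT and 7.17% for TGA, below every FICC-Seq and iCLIP library.

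Counts upstream of position 49, that is, cDNAs that stopped 5′ of the T arm, went the opposite way. All 4 isoacceptors had a lower share there in FICC-Seq than in iCLIP, with differences of -7.93 points for AGA (2.60% against 10.5%, adjusted p = 0.0267), -9.52 for CGA (1.85% against 11.4%, adjusted p = 0.0072), -15.5 for GCT (2.31% against 17.8%, adjusted p = 0.0072) and -18.4 for TGA (4.05% against 22.4%, adjusted p = 0.0321). Among 36 isoacceptors 83.3% were called, and the median difference was -19.9 points. The FICC-Seq means rest largely on the libraries numbered 2, which had 3.03% (HEK293) and 10.2% (HAP1) upstream for GCT and 3.82% and 16.8% for TGA. Without them the mean over all serine tRNAs fell from 1.56% to 0.415% in HEK293 and from 3.47% to 0.591% in HAP1, and the differences from iCLIP were larger (-9.40 for AGA, -11.2 for CGA, -17.7 for GCT and -21.5 for TGA), with all 4 called. The calls for AGA and TGA were lost without any 1 of several libraries, among them the FICC-Seq libraries 1 and 3 of HEK293 and of HAP1 and the iCLIP library 1 of HAP1 (TGA -11.8 points, adjusted p = 0.077), and leaving out a library also leaves fewer labelings. The 6 iCLIP libraries had 11.99%, 9.75% and 22.3% upstream in HEK293 and 19.2%, 15.2% and 14.5% in HAP1 over all serine tRNAs, and miCLIP had 19.4% and 27.1%.

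Upstream counts of iCLIP and miCLIP were not spread evenly. Position 48, the last base before the T stem, held 33 of 744 counts in iCLIP of HEK293 and 37 of 647 in HAP1. In miCLIP it held 267 of 5428, and in FICC-Seq 2 of 2656 in HEK293 and 1 of 2614 in HAP1. Per library the share at position 48 ran from 2.79% to 6.97% in iCLIP and was 4.61% and 5.05% in miCLIP. Among iCLIP isoacceptors GCT held 23 of the 33 counts in HEK293 and 26 of the 37 in HAP1. Position 61, the first stem base 3′ of the T loop, was marked in iCLIP alone to any extent, with 42 and 37 counts (from 9 to 18 in each library), 5 in miCLIP and 0 in FICC-Seq, which allows a share of up to 0.113% in HEK293 and 0.115% in HAP1. The share at position 61 in iCLIP was 5.81% ± 1.66 in HEK293 and 5.65% ± 0.81 in HAP1 (SD, n = 3), below that of leucine tRNAs (14.9% and 13.6%).

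Further 5′, miCLIP also marked bases of the anticodon arm. In the 22 genes of 82 nt, base 32 is the cytidine known to carry 3-methylcytidine in serine tRNAs. It held 20 and 69 counts in the miCLIP libraries, 1 and 0 in FICC-Seq and 7 and 3 in iCLIP of HEK293 and HAP1. The groups differed in depth, with 744 (HEK293) and 647 (HAP1) serine counts in iCLIP against 5428 in miCLIP. Of the 89 miCLIP counts 54 were in AGA (3.08% of its counts), 30 of them at tRNA-Ser-AGA-4-1 alone. CGA held 19 (1.90%), TGA 11 (1.62%) and GCT 5 (0.303%). In iCLIP of HEK293, base 32 held 0 of 118 counts in AGA, 2 of 211 in CGA, 4 of 74 in TGA and 1 in GCT. In the T stem, bases 59 and 60 held 236 and 120 miCLIP counts. Counts 5′ of the first base of the gene, in the leader that mature tRNAs lack, numbered 242 of 5428 in miCLIP. In iCLIP they numbered 23 of 744 in HEK293 and 17 of 647 in HAP1, and in FICC-Seq 3 of 2656 and 34 of 2614. The mean leader share per library was 3.70% in miCLIP, 4.10% and 2.75% in iCLIP, and 0.137% and 1.32% in FICC-Seq. Of the 34 counts, 26 came from the HAP1 library numbered 2, and of the 23 iCLIP counts of HEK293, 18 came from library 3, so the leader counts of those groups rest on 1 library each.

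Between cell lines, the share at positions 53 and 54 was not called different for any of the 4 isoacceptors, with cell line labels permuted within a method (0.0% of 36 called). GCT had the smallest p (HEK293 minus HAP1 -6.87 points, p = 0.01 by the exact permutation test, adjusted p = 0.36). In FICC-Seq the GCT values were 56.2% to 64.04% in HEK293 and 66.8% to 67.2% in HAP1, without overlap. It was the only one of the 4 with an unadjusted p under 0.05.

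The level of each locus was compared between methods by limma's voom fit over all 14 libraries and 244 tRNA loci, scaled by trimmed means of the tRNA counts, so that a log2 fold change is relative to the bulk of tRNA loci. Between FICC-Seq and iCLIP of HEK293, 6 of 24 serine loci were called at an adjusted p under 0.05 (1 higher, 5 lower), against 54.5% of all loci (23.0% higher, 31.6% lower). The serine median was 0.43 on the log2 scale and that of all loci -0.06. In HAP1 7 serine loci were called, all lower, against 50.0% of all loci (29.1% lower), with a serine median of -0.31 and -0.28 over all loci. The median of all loci moved with the scaling (to 0.77 in HEK293 with library totals over all mapped counts, and to -0.38 with median-of-ratios scaling), and the share of calls that were higher moved from 42.1% to 67.1% with library totals in HEK293 and from 41.8% to 56.2% in HAP1. Under library totals 14 serine loci were called in HEK293, 12 of them higher, and in HAP1 10, of which 5 were higher and 5 lower. Of all 244 loci, 94 were then called higher and 46 lower in HEK293, and 68 and 53 in HAP1.

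tRNA-Ser-GCT-5-1 had the lowest ratio of all serine loci. The FICC-Seq libraries held 1, 8 and 5 counts in HEK293 and 6, 16 and 5 in HAP1, the iCLIP libraries 32, 30 and 21 in HEK293 and 24, 35 and 16 in HAP1, and the miCLIP libraries 44 and 99. iCLIP held more counts than FICC-Seq in HEK293 and as many or more in HAP1 although its libraries were shallower. The log2 fold change (FICC-Seq over iCLIP) was -4.70 ± 0.58 in HEK293 (SE, adjusted p = 2.3e-06) and -3.89 ± 0.49 in HAP1 (adjusted p = 2.7e-06), and it stayed between -5.46 and -3.54 with any 1 library left out.

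tRNA-Ser-AGA-2-4 (log2 fold change -2.94 in HEK293, -3.42 in HAP1), tRNA-Ser-AGA-1-1 (-2.13 and -2.24), tRNA-Ser-GCT-4-2 (-2.10 and -0.96) and tRNA-Ser-GCT-4-3 (-1.63 and -1.96) were also lower in FICC-Seq in both lines. The first pair rests on few cDNAs: tRNA-Ser-AGA-2-4 had 1, 3 and 0 FICC-Seq counts in HEK293 and 0, 3 and 3 in HAP1, against 2, 2 and 3 and 8, 1 and 7 in iCLIP. In HEK293 the calls of both AGA loci were lost with library totals (adjusted p = 0.0831 and 0.183) and without single libraries, among them FICC-Seq library 3 (adjusted p = 0.085 and 0.0668). The number of serine loci called in HEK293 was 3 without that library.

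tRNA-Ser-CGA-4-1 was the only locus called higher in FICC-Seq of HEK293, at 1.62 ± 0.60 (SE, adjusted p = 0.0267). Its libraries held 25, 15 and 26 counts in FICC-Seq and 1, 1 and 3 in iCLIP, without overlap per tRNA count, and the call was lost without iCLIP library 1 (1.17, adjusted p = 0.187) or 2 (1.37, adjusted p = 0.125), without FICC-Seq library 1 or 3, and with median-of-ratios scaling. In HAP1 tRNA-Ser-CGA-2-1 was lower in FICC-Seq (-2.53 ± 0.53, adjusted p = 0.000981), from 11, 12 and 5 counts against 8, 17 and 6 in iCLIP, and tRNA-Ser-GCT-6-1 was lower too (-1.88, adjusted p = 0.00021). No serine locus, and none of the 244 loci (0.0%), passed the test of whether the FICC-Seq to iCLIP ratio differed between the lines. An unadjusted p under 0.05 was found at 5 of 24 serine loci and at 22 of all 244.

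**Figure D1:**
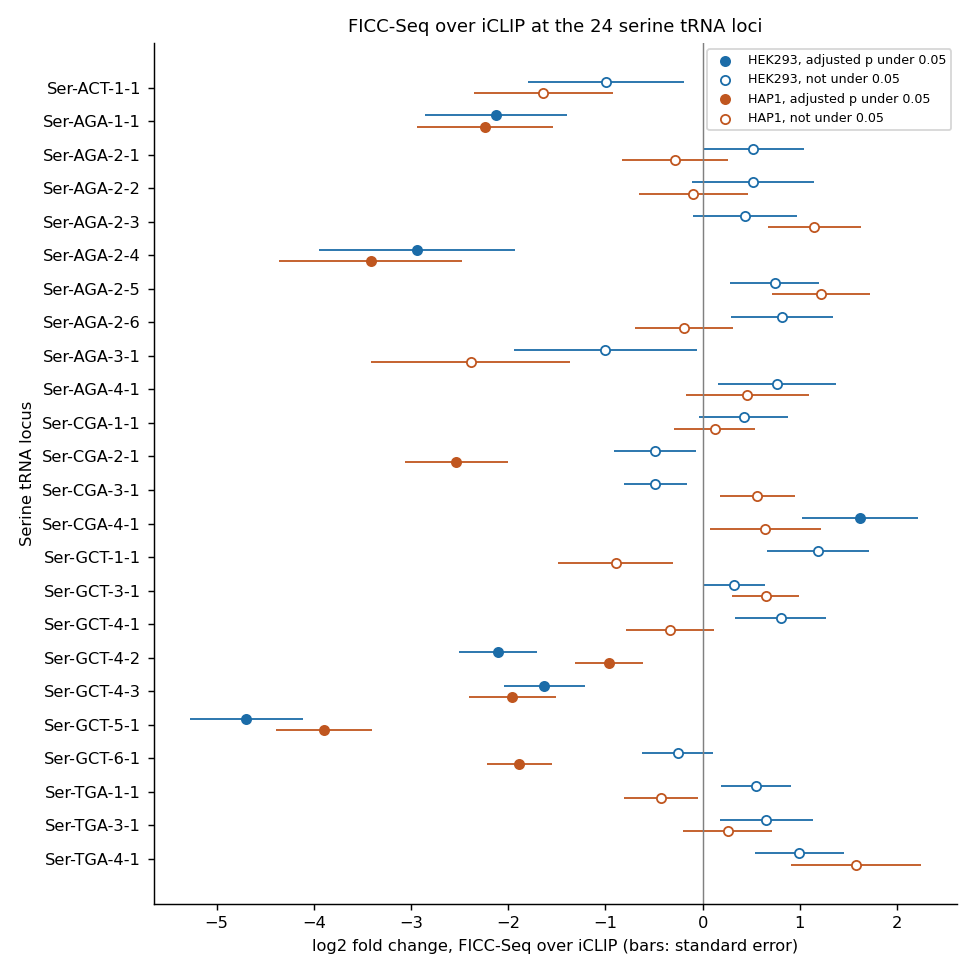
log2 fold change of FICC-Seq over iCLIP (horizontal axis, bars are standard errors) for the 24 serine tRNA loci in HEK293 and HAP1; filled points passed an adjusted p of 0.05. GCT-5-1 lies lowest in both lines, and CGA-4-1 in HEK293 is the only filled point above 0.

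Summed by anticodon, AGA was higher in FICC-Seq than in iCLIP of HEK293 by 0.69 ± 0.27 on the log2 scale (SE, adjusted p = 0.0331) and TGA by 1.05 ± 0.30 (adjusted p = 0.00594), and these 2 of 5 serine isoacceptors were called against 68.8% of all 48 (33.3% higher). The AGA call was lost without any 1 of the 6 libraries compared (0.23, adjusted p = 0.614 without FICC-Seq library 3). The TGA call was lost without FICC-Seq library 3 (0.53, adjusted p = 0.228) and with median-of-ratios scaling (0.69, adjusted p = 0.0538). In both of these settings GCT was called lower (-0.65, adjusted p = 0.0154 and -0.61, adjusted p = 0.00613) and no serine isoacceptor higher. With tRNA totals the AGA call alone was lost (adjusted p = 0.126). In HAP1 GCT alone was called, lower by 0.64 on the log2 scale (log2 fold change -0.64 ± 0.19, adjusted p = 0.00784), against 66.7% of all isoacceptors (37.5% lower), and its call was lost without iCLIP library 2 (adjusted p = 0.057). Without FICC-Seq library 2, CGA was also called in HAP1 (0.54, adjusted p = 0.0416). Other scalings moved the share of isoacceptor calls that were higher from 48.5% to between 27.6% and 67.7% in HEK293, and from 43.8% to between 30.3% and 60.9% in HAP1. The FICC-Seq to iCLIP ratio was not called different between the lines for any serine anticodon by the same fit (0.0% of 48 called). At an unadjusted p under 0.05 there were 0 serine isoacceptors and 1 of all 48.

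FICC-Seq and miCLIP, both of HEK293 and both dependent on the enzyme's own chemistry, differed at 17 of 24 serine loci (7 higher in FICC-Seq, 10 lower), against 79.1% of all loci (32.0% higher, 47.1% lower). The serine median was -0.09 on the log2 scale and that of all loci -0.51. tRNA-Ser-CGA-3-1 was the highest in FICC-Seq relative to miCLIP (2.10 ± 0.35, adjusted p = 1.46e-05), with 158, 73 and 165 counts in FICC-Seq and 45 and 141 in the deeper miCLIP libraries. tRNA-Ser-GCT-4-2 (1.31, adjusted p = 0.0118) and tRNA-Ser-AGA-2-5 (1.11, adjusted p = 0.00294) followed. tRNA-Ser-ACT-1-1 (-3.29 ± 0.59), tRNA-Ser-AGA-2-4 (-3.19 ± 0.83) and tRNA-Ser-GCT-5-1 (-2.56 ± 0.58) were lowest. ACT-1-1 met the low-count filter only with the miCLIP libraries, where it is high. Its values against miCLIP are a description, and its call is not support for a difference. Without miCLIP library 1, 9 serine loci were called. With tRNA totals the median of all loci moved to -1.03, the calls of GCT-4-2 and AGA-2-5 were lost, and 1 serine locus was called higher and 12 lower. With median-of-ratios scaling 3 were higher and 11 lower. Of all loci, 65 were higher and 131 lower with tRNA totals, and 71 and 122 with median-of-ratios scaling.

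By anticodon, ACT (-3.15 ± 0.55) and AGA (-0.38 ± 0.17, adjusted p = 0.048) were lower in FICC-Seq than in miCLIP. CGA (0.59 ± 0.18, adjusted p = 0.00643) and TGA (0.67 ± 0.16, adjusted p = 0.00135) were higher. With ACT included, 4 of 5 were called against 87.5% of all isoacceptors (39.6% higher and 47.9% lower). ACT is the single locus ACT-1-1, so its value is a description for the reason given above. With tRNA totals CGA turned to -0.05 and TGA moved to 0.04 (adjusted p = 0.848), while both stayed higher and called with library totals and with median-of-ratios scaling. The share of isoacceptor calls that were higher fell from 45.2% to 30.0% with tRNA totals. AGA lost its call when any of several single libraries was left out, with adjusted p from 0.051 to 0.172 there. CGA lost its call without FICC-Seq library 3 (adjusted p = 0.052) or miCLIP library 2 (adjusted p = 0.06).

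Between iCLIP and miCLIP of HEK293, 10 serine loci were called (4 higher in iCLIP, 6 lower), against 47.1% of all loci (21.3% higher, 25.8% lower). tRNA-Ser-GCT-4-2 (3.42 ± 0.44), tRNA-Ser-CGA-3-1 (2.58 ± 0.36) and tRNA-Ser-GCT-4-3 (2.31 ± 0.41) were the highest, and tRNA-Ser-CGA-4-1 (-2.67 ± 0.58), tRNA-Ser-GCT-1-1 (-2.54 ± 0.54) and tRNA-Ser-ACT-1-1 (-2.30 ± 0.63) the lowest. tRNA-Ser-GCT-1-1 was the serine locus with the most counts in miCLIP (294 and 526), against 14, 8 and 1 in iCLIP of HEK293. ACT-1-1 lost its call without iCLIP library 1 (adjusted p = 0.0506) or 2 (adjusted p = 0.0657). By anticodon, ACT (-2.40 ± 0.55) and AGA (-1.07 ± 0.28, adjusted p = 0.00355) were lower in iCLIP and CGA higher (0.57 ± 0.23, adjusted p = 0.0457). With ACT included, 3 of 5 were called against 58.3% of all isoacceptors (20.8% higher, 37.5% lower). ACT and its locus met the low-count filter only with the miCLIP libraries, so their values here are also a description. AGA lost its call without FICC-Seq library 3, which is not among the libraries compared but enters the scaling and the spread (adjusted p = 0.117), and CGA lost its call without most single libraries and turned to -0.09 with library totals. Library totals also moved the median of all loci from -0.38 to -1.22 and the share of calls that were higher from 45.2% to 20.0% (for isoacceptors from 35.7% to 12.5%). These method comparisons share libraries, so their values are given side by side and not compared.

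Within FICC-Seq, 6 of 24 serine loci differed between the cell lines, all higher in HEK293, against 12.7% of all loci called (6.56% higher and 6.15% lower). The serine median was 0.43 on the log2 scale and that of all loci -0.01. tRNA-Ser-GCT-1-1 had 50, 60 and 56 counts in HEK293 and 11, 19 and 17 in HAP1, and was higher by 2.32 ± 0.39 (SE, adjusted p = 0.000372). tRNA-Ser-CGA-2-1 had 28, 29 and 32 against 11, 12 and 5 (2.29 ± 0.44, adjusted p = 0.000977). tRNA-Ser-TGA-4-1 had 73, 56 and 70 against 21, 37 and 29 (1.73 ± 0.31, adjusted p = 0.00071). In each of the 3 all HEK293 libraries exceeded all HAP1 libraries although the HAP1 libraries were deeper. tRNA-Ser-TGA-1-1 (1.25, adjusted p = 0.00144), tRNA-Ser-GCT-6-1 (1.14, adjusted p = 0.00977) and tRNA-Ser-GCT-4-1 (0.90, adjusted p = 0.0493) were the others. limma-trend in place of voom did not call TGA-4-1 (1.73, adjusted p = 0.118). Gene copy number and tRNA abundance in the 2 lines were not measured here.

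Calls differed among the loci of 1 anticodon, and the difference between loci was not tested. Of the 3 identical GCT-4 genes, GCT-4-1 was called higher in HEK293. GCT-4-2 had 26, 17 and 13 counts in HEK293 and 37, 49 and 50 in HAP1 and was not called. To which of these identical copies a count belongs is uncertain, as given above. tRNA-Ser-CGA-3-1, the locus with the most FICC-Seq counts (864 over 6 libraries), had 158, 73 and 165 in HEK293 and 147, 114 and 207 in HAP1, which overlap. tRNA-Ser-GCT-3-1, with the most counts over all libraries (1270), had 148, 97 and 97 against 123, 127 and 157. tRNA-Ser-AGA-3-1 had the fewest (102 over all libraries, 80 of them in miCLIP). The 3 highest loci held 38.0% of serine counts in FICC-Seq, 35.5% in iCLIP and 30.9% in miCLIP. They were CGA-3-1, GCT-3-1 and AGA-2-5 in FICC-Seq, CGA-3-1, GCT-5-1 and GCT-3-1 in iCLIP, and GCT-1-1, AGA-2-1 and AGA-2-3 in miCLIP.

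Summed by anticodon, TGA was higher in HEK293 than in HAP1 in FICC-Seq by 1.18 ± 0.17 on the log2 scale (SE, adjusted p = 0.000163) and GCT by 0.56 ± 0.16 (adjusted p = 0.0366), 2 of 5 against 6.25% of all 48 isoacceptors (4.17% higher). The TGA value stayed between 0.93 and 1.25 with any 1 library left out and was called each time. The GCT call was lost without both libraries numbered 2 (0.50, adjusted p = 0.0648), and without any 1 of 9 libraries, among them each of the HEK293 libraries (0.44, adjusted p = 0.075 without library 3). AGA (0.29), CGA (0.40) and ACT (-0.38) were not called. Of the 3 isoacceptors called in all, 66.7% were higher in HEK293, and with median-of-ratios scaling 28.6% of 7.

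In iCLIP no serine locus was called between the lines (0.82% of all loci). An unadjusted p under 0.05 was found at 25 of all 244 loci and at 2 of 24 serine loci, CGA-3-1 (1.29, adjusted p = 0.179) and TGA-4-1 (2.31, adjusted p = 0.194). The latter had 11, 11 and 4 counts in HEK293 and 0, 8 and 1 in HAP1. At this depth a difference of the size seen in FICC-Seq may go uncalled, and the standard error for TGA-4-1 was 0.75 in iCLIP against 0.31 in FICC-Seq. No serine isoacceptor was called in iCLIP (6.25% of all). At an unadjusted p under 0.05 there were 7 of 48 isoacceptors, 1 of them serine (CGA at 0.74, adjusted p = 0.22). limma-trend in place of voom called CGA there (0.72, adjusted p = 0.037). Whether the difference between lines itself differed between methods is the interaction given above, for which no serine locus or isoacceptor was called.

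**Figure D2:**
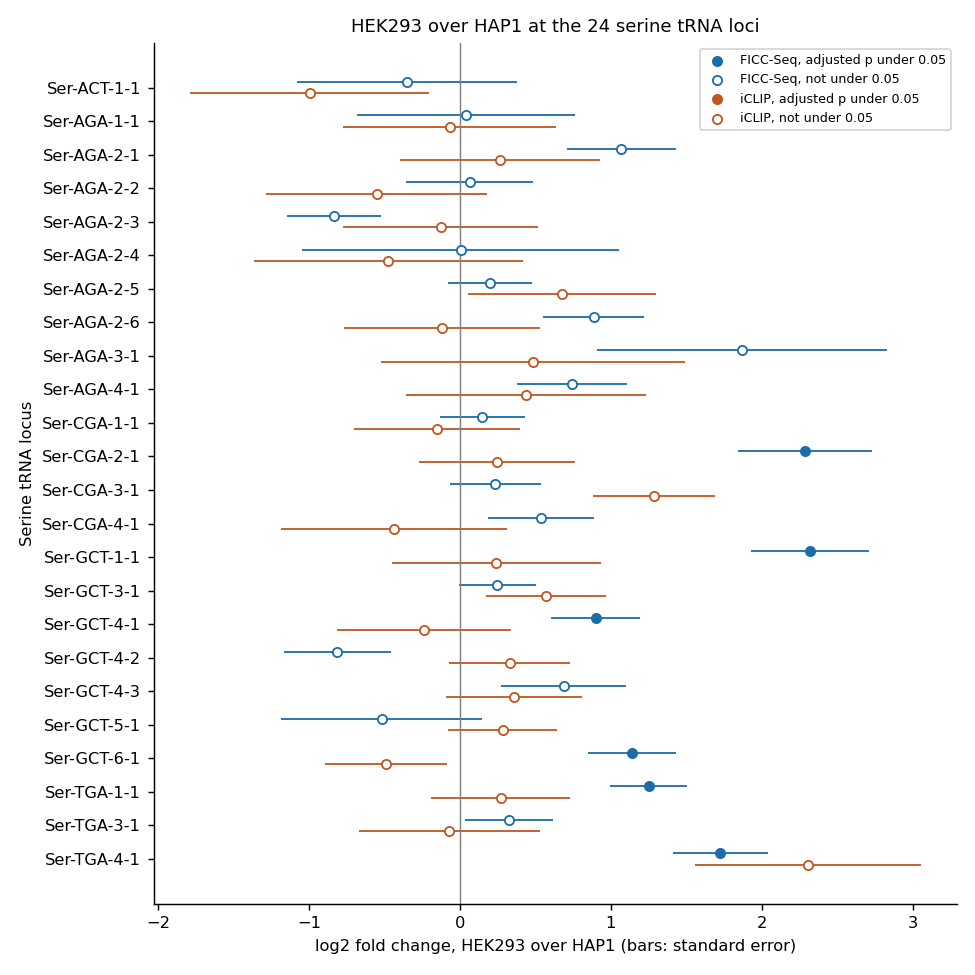
log2 fold change of HEK293 over HAP1 (horizontal axis, bars are standard errors) for the 24 serine tRNA loci in FICC-Seq and iCLIP; filled points passed an adjusted p of 0.05. The 6 filled points, all FICC-Seq and all above 0, are GCT-1-1, CGA-2-1, TGA-4-1, TGA-1-1, GCT-6-1 and GCT-4-1.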

How the data were processed

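The authors deposited 1 file per library with the number of distinct cDNAs (the cDNA count) at each genomic position on hg19, with the sign giving the strand. They had removed PCR duplicates by random barcodes and kept uniquely mapped reads. Counts were summed over each serine window (100 nt 5′ to 25 nt 3′ of a cluster, clusters under 40 nt apart joined), and positions were numbered from the T arm found in each gene sequence. RefSeq held a symbol for all 24 loci.

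Depth ran from 7002 to 104605 cDNA counts per library, and intervals cover counting error only. A locus entered the fit with the equivalent of 10 counts in 2 libraries and a sum of at least 15. Levels were fitted with limma 3.58.1 (voom, R 4.3.3) on all 14 libraries, scaled by trimmed means, with Benjamini-Hochberg adjustment at 0.05. The values carry a strand sign, and their absolute values were summed. This fit took the place of the planned count test, which was not run. Shares were tested by exact permutation (400 labelings, smallest p 0.005) over isoacceptors with a mean of at least 10 counts, using Python 3.11.15 and scipy 1.17.1. The fit was tested on simulated data.

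Replicates differed beyond sampling noise in every pair (chi-square per degree of freedom from 1.44 to 9.03), so none was counted as 1 sample with another. Libraries with the same number deviated together between cell lines of a method (r from 0.34 to 0.65 in FICC-Seq and from 0.12 to 0.34 in iCLIP), so the numbers were taken to pair cell lines, from the data and not from the labels. Between methods r ran from -0.122 to 0.272, and each pair of groups held a value under 0.1.

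The text names all serine isoacceptors, the loci with the most or fewest counts, and up to 3 called loci with the largest change in each direction per comparison. The members, lists and tests were chosen with earlier results of these data known. Alternatives covered the positions counted, single cDNAs, barcode collisions, scaling, the low-count filter, the test, the replicate block and each library left out.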

Additional observations from a re-analysis of the deposited data

Results flagged for a closer look

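A serine-like tRNA gene copy outside the study's list of clusters held 91 cDNA counts over the 14 libraries, above the 3 counts that a count of 0 allows. The miCLIP libraries held 19 and 58 of them, the iCLIP libraries of HEK293 8, 3 and 0, the FICC-Seq libraries of HEK293 0, 1 and 1, the FICC-Seq libraries of HAP1 1, 0 and 0, and the iCLIP libraries of HAP1 0 each. It entered no comparison.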

How the results depend on the processing

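The calls at positions 53 and 54 (4 of 4 serine isoacceptors between methods, 0 of 4 between lines) were the same under every alternative run. At position 58 the number called rose from 0 to 1 with positions 57 to 59 or with correction for barcode collisions, 2 with the mean of the shares of loci, 4 without positions of 1 cDNA, and 0 to 1 with a library left out. Upstream of position 49 it fell from 4 to 1 without positions of 1 cDNA or with the mean of loci, to 2 with the replicate block (whose smallest p is 0.03125), and to 2 to 4 with a library left out. Serine shares of iCLIP fell to 3.89% in HEK293 and 3.46% in HAP1 without positions of 1 cDNA. With a library left out, shares ran from 4.51% to 5.13% (FICC-Seq HEK293), 3.04% to 3.24% (FICC-Seq HAP1), 4.36% to 4.60% (iCLIP HEK293), 3.97% to 4.16% (iCLIP HAP1) and 6.39% to 7.21% (miCLIP).

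Serine loci called moved to 14 with library totals (FICC-Seq against iCLIP in HEK293, beside 94 higher and 46 lower among all loci). They moved to 12 with the replicate block (FICC-Seq against iCLIP in HAP1), 8 with limma-trend (FICC-Seq against miCLIP) and 1 without the FICC-Seq libraries numbered 2 (HEK293 against HAP1 in iCLIP). With a library left out they ran from 3 to 7, 7 to 9, 9 to 17, 7 to 10 (iCLIP against miCLIP), 5 to 8 (HEK293 against HAP1 in FICC-Seq) and 0 to 1 (in iCLIP). Isoacceptors called moved in FICC-Seq against iCLIP to 1 in HEK293 with median-of-ratios scaling (GCT, lower, with AGA and TGA lost) or tRNA totals (TGA), and in HAP1 to 0 with library totals and to 2 with the replicate block, median-of-ratios scaling, tRNA totals or without the libraries numbered 2. They moved to 2 with limma-trend (FICC-Seq against miCLIP), to 1 with library totals, tRNA totals, limma-trend or without the libraries numbered 2 (HEK293 against HAP1 in FICC-Seq), and to 1 with limma-trend (in iCLIP). With a library left out they ran from 1 to 2, 0 to 2, 1 to 4, 1 to 3, 1 to 2 and 0 to 0 in the same order. Against FICC-Seq, tRNA totals turned miCLIP values to -0.046 (CGA) and -0.61 (GCT), and library totals turned CGA of iCLIP over miCLIP to -0.086. The cause was not tested.

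Where numbers pair cell lines, the replicate block called 5 serine loci and 2 isoacceptors in FICC-Seq, and 7 and 2 within the 6 libraries of that method, and it moved no count of calls by over 1.5 times other than those given above. Between methods the numbers were not taken to pair libraries. limma-trend, median-of-ratios scaling, tRNA totals, the block within 1 method and the omission of the libraries numbered 2 were added after seeing the data. A DESeq2 fit was not run. Depth limits iCLIP most.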
